A study of Canis lupus familiaris with 4 samples.

Results

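Some stretches of the dog genome hold few accessible sites. The sites described here are the peaks of open chromatin in fixed 1 Mb windows that hold few of them. They were mapped by ATAC-seq, an assay that uses a transposase to tag DNA left open by chromatin, in MDCKII cells, an epithelial line from canine kidney that forms polarised monolayers. Mature monolayers were grown for 7 d (libraries A and B), and reseeded cells came from monolayers grown for the same 7 d, then detached and plated again for 2 h (libraries A and B). All 4 libraries carry the tag wt in their names, the labels name no drug or gene change in either state, and the same serum-containing medium was used for all. Each 1 Mb of chromosomes 1 to 38, leaving out chromosomes 19, 29 and 32, was taken as a fixed window counted from position 1 (CanFam3.1), and a peak belonged to the sparse set if its midpoint lay in a window holding 1 to 9 peaks. This gave 1746 peaks in 436 windows, of 59081 peaks in the table and of 55989 peaks in 1899 windows on the same 35 chromosomes. Sparse windows were thus 23.0% of the windows with a peak but held 3.12% of the peaks. The rule uses positions alone, but the peak set itself was called on these libraries, and how a peak entered the table is not given in the sources used here.

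As background, accessible sites mark promoters, enhancers and binding sites of other DNA-binding proteins, and they crowd where genes are dense. Long stretches with few such sites are, in mammalian cells, often poor in genes, late in replication, packed as heterochromatin and found at the nuclear lamina or around nucleoli. The series is about invaginations of the nuclear envelope and the spatial order of chromatin, and its design sets mature monolayers beside cells that had to settle again. None of these features was measured in these libraries, and peaks were placed neither on genes nor on epithelial markers, since the annotation used describes another assembly.

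Total counts in peaks were between 6253706 and 8759513 in the mature libraries and between 16906566 and 24015663 in the reseeded libraries. Whether libraries A and B of a state are separate cultures is not said in the labels, so the spread behind each p-value may be only technical. Sample names open with one code in the mature and another in the reseeded state. Reseeding and any batch that goes with this code cannot be told apart. In bulk libraries, a site open in fewer cells and a site less open in every cell cannot be told apart either.

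Most runs of sparse windows were short. The 436 windows formed 303 runs of adjoining sparse windows, of which 209 were a single window and 20 had 3 or more windows. The longest run had 7 windows. Sparse or empty windows lay on both sides of 97 sparse windows, on 1 side of 211 and on neither side of 128. On these chromosomes 183 further windows between the first and last peak of a chromosome held no peak. A sparse window held a median of 4 peaks, and 103 windows (23.6%) held 1 peak. The distance from a sparse peak to its nearest neighbour had a median of 16.9 kb, against 3.5 kb for the other peaks of the same chromosomes. Around 636 of the sparse peaks, 10 or more other peaks lay within 500 kb on either side. These are sparse by the fixed grid and not by a window centred on the peak.

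Sparse peaks were weaker than other peaks in mature cells and nearer to them in reseeded cells. Median accessibility of sparse peaks was 9.39 CPM in mature A, 9.48 CPM in mature B and 11.6 CPM in each reseeded library, where CPM are counts scaled to a common library total. For the other peaks of the same chromosomes the medians were 12.4 and 12.8 CPM in mature A and B and 12.9 CPM in each reseeded library. The gap between the peak sets was thus present in both states, and it was wider in the mature libraries. Mean mature accessibility was under 5 CPM at 550 sparse peaks (31.5%), against 19% of the other peaks. In reseeded cells the shares under 5 CPM were 8.53% and 8.0%.

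**Figure D1:**
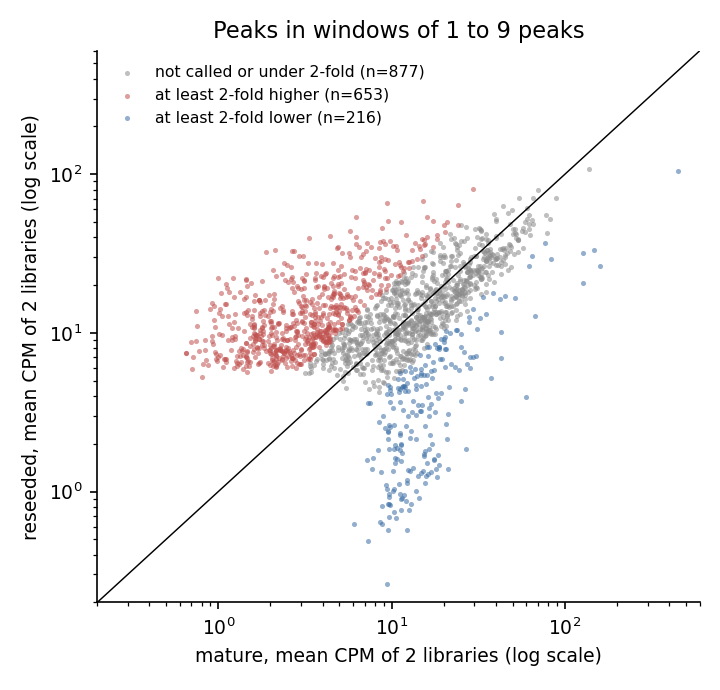
Each point is 1 of the 1746 sparse peaks, with its mean CPM over the 2 mature libraries on the horizontal axis and over the 2 reseeded libraries on the vertical axis (both log scales), and the line marks equal levels. The 653 peaks at least 2-fold higher (red) have medians of 3.1 CPM in mature and 11.6 CPM in reseeded cells, and the 216 at least 2-fold lower (blue) have medians of 14.6 and 3.58 CPM.

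The percentage of a library's counts on the 35 chromosomes that fell in sparse peaks was higher in both reseeded libraries than in either mature library. It was 2.43% in mature A and 2.41% in mature B (2.42% ± 0.0118, SD, n = 2), and 2.80% in reseeded A and 2.81% in reseeded B (2.80% ± 0.00296, SD, n = 2). The groups did not overlap, and the difference of 0.385 percentage points, a ratio of 1.16, exceeded the spread within either state. Wilson 95% intervals reached at most 0.0123 percentage points either side and cover counting error only. With 2 libraries against 2, the exact 2-sided permutation test can go no lower than its value here, p = 0.33 (0.33 after Benjamini-Hochberg adjustment over 4 density classes).

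The rise in share was not particular to the sparsest windows. In windows of 10 to 19 peaks the share went from 8.19% ± 0.0755 to 9.43% ± 0.011, a ratio of 1.15, and in windows of 20 to 39 peaks from 23.8% ± 0.177 to 26.9% ± 0.0169, a ratio of 1.13 (n = 2 each). Only windows of 40 or more peaks took a lower share after reseeding, 60.9% ± 0.0308 against 65.6% ± 0.265. Each of these contrasts likewise had the smallest p the design allows, 0.33 by the exact permutation test. Because the 4 shares add to 100%, the fall of the densest class and the rise of the other 3 are not separate observations.

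Among sparse peaks, gains outnumbered losses after reseeding. Called gains of at least 2-fold numbered 653 of 1746 peaks (37.4%), against 26.9% of all peaks tested, and called losses of that size 216 (12.4%), against 15.0%. At least 4-fold gains numbered 309 (17.7%, against 10.1%) and at least 4-fold losses 120 (6.87%, against 6.04%). All 1746 sparse peaks passed the count filter. The quasi-likelihood test of edgeR, with adjustment over all peaks tested, called 1488 sparse peaks (85.2%) at an adjusted p under 0.05, which is near the 84.1% of all peaks. Of these, 920 were higher (52.7%, against 42.3%) and 568 lower (32.5%, against 41.8%). The share called was thus close to the background, while its split leaned towards gains. Depth moved with the state, since both reseeded libraries were deeper than both mature ones, and its part in which peaks entered the table, and so in the share of gains, was not tested. With all libraries thinned to the shallowest, on the same peak set, 36.6% of sparse peaks were at least 2-fold higher, against 26.0% of all peaks.

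The median log2 fold of reseeded over mature was 0.41 over the sparse peaks (quartiles -0.44 and 1.60) and -0.02 over the other peaks of the same chromosomes. Taking each library letter alone, the median log2 ratio, with 0.5 CPM added to each level, was 0.38 from mature A to reseeded A and 0.40 from mature B to reseeded B. TMM scaling sets the typical peak near no change, and a shift common to all peaks would go unseen. With loess offsets trended on mean level in place of TMM factors, fewer gains remained: 19.4% of sparse peaks had gained at least 2-fold and 14.2% had lost as much, beside 16.6% and 16.4% of all peaks. The median log2 fold was then 0.02 over the sparse peaks and -0.11 over all peaks.

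The 309 peaks that gained at least 4-fold went from near the low end of the mature range to the usual level of a sparse peak. Their medians were 1.74 and 2.11 CPM in mature A and B and 12.9 and 13.1 CPM in reseeded A and B. They lay in 203 of the 436 windows and on all 35 chromosomes. Mature B exceeded mature A at 222 of them (71.8%), with a median log2 ratio of 0.28. At sparse peaks that were not called, that ratio was -0.08. Its part in the folds was not tested.

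The 120 peaks lost at least 4-fold had medians of 12.2 and 14.5 CPM in mature A and B and of 1.63 and 1.72 CPM in reseeded A and B. They lay in 89 windows on 31 chromosomes, and 26 of them (21.7%) were in the first or last window with a peak on their chromosome, where 3.24% of the 4-fold gains lay. Mature B exceeded mature A at 82 of them (68.3%), with a median log2 ratio of 0.21, and the part of this in the folds was not tested. Gains and losses of this size joined similar levels in opposite directions. No sparse peak had a mean under 5 CPM in both states, and 31 of the 54243 other peaks did. Peaks were called on these same libraries, so sites low in both states may be absent from the set. Both observations may follow from that and are no result about sparse peaks.

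Shares were similar in all density classes below 40 peaks per window. In windows of 1 to 3 peaks 37.6% of 383 peaks had gained at least 2-fold and 13.8% had lost as much, in windows of 4 to 6 peaks 38.9% and 12% of 640, and in windows of 7 to 9 peaks 36.0% and 11.9% of 723. Beyond the limit, windows of 10 to 19 peaks had 35.7% and 11.6% of 5695 peaks and windows of 20 to 39 peaks 33.4% and 12.5% of 15829. The large step came at 40 or more peaks, with 21.3% and 17.0% of 32715 peaks. At the limit itself, the 35 windows of 9 peaks had a median peak log2 fold of 0.23, with 35.2% of 315 peaks at least 2-fold higher. The 46 windows of 10 peaks had a median of 0.38, with 39.1% of 460 peaks. No break is seen at the limit of 9 peaks. These classes were chosen with the values known and carry no test.

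**Figure D2:**
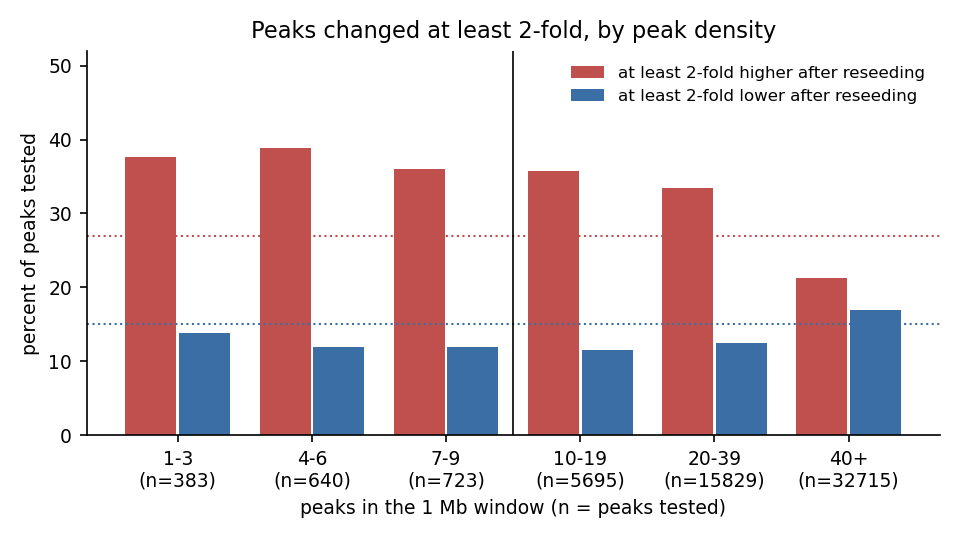
Bars give the percent of tested peaks at least 2-fold higher (red) or lower (blue) after reseeding, by the number of peaks in their 1 Mb window; dotted lines are the values over all peaks, 26.9% and 15.0%, and the vertical line is the limit of 9 peaks. Red bars stay between 33.4% and 38.9% up to 39 peaks per window and are 21.3% at 40 or more.

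At a like signal, sparse peaks still held more gains than other peaks. All peaks of the table were divided into deciles of mean CPM, with both states weighted equally. In the weakest decile 70.4% of 307 sparse peaks were at least 2-fold higher, against 66.4% of other peaks of the same chromosomes, and in the next decile 50.4% of 240 against 38.2%. In the strongest decile the shares were 7.44% of 121 and 5.79%. The share was higher for sparse peaks in 10 of 10 deciles, and that of 2-fold losses was lower in 8 of 10. Other peaks weighted to the sparse peaks' deciles would give 31.4% gains and 15.4% losses, beside 26.3% and 15.1% unweighted and 37.4% and 12.4% for sparse peaks. With deciles of the higher of the state means, gains were more frequent in 10 of 10 deciles and losses less frequent in 6 of 10. Other peaks weighted to those deciles would give 28.4% gains and 14.4% losses. Of the 54243 other peaks, 32717 lay in windows of 40 or more peaks. Windows of 10 to 19 and of 20 to 39 peaks were not compared with sparse peaks at like signal. Without such matching their shares of gains were 35.7% and 33.4%. Both measures of signal are made from the states that are compared. These shares are descriptions over peaks that come from the same 4 libraries and carry no test.

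**Figure D3:**
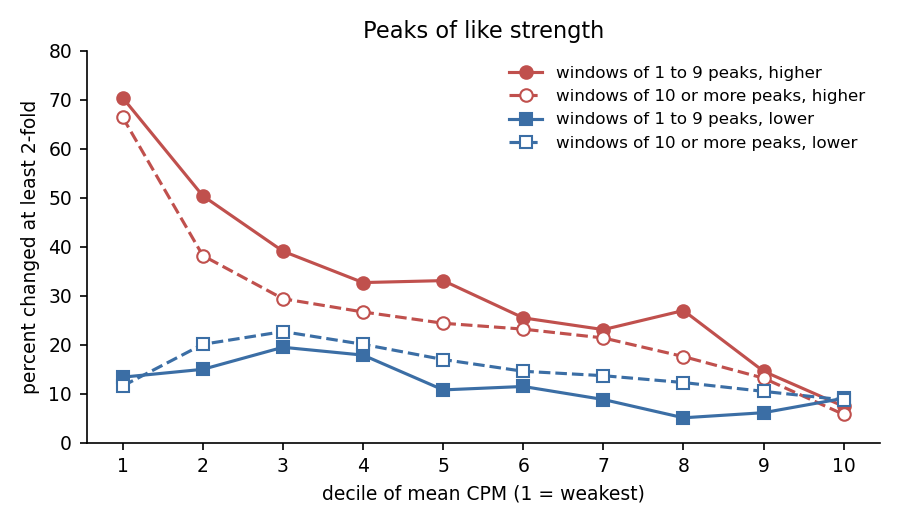
The percent of peaks at least 2-fold higher (red) and lower (blue) after reseeding is drawn for 10 deciles of mean CPM, for sparse peaks (filled) and the other peaks of the same chromosomes (open). The filled red points lie above the open ones in all 10 deciles, by the most in decile 2, with 50.4% against 38.2%.

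Spacing on a finer scale also went with the direction. Of 223 sparse peaks with a neighbour within 1 kb, 23.8% had gained and 15.7% had lost at least 2-fold, and the median log2 fold was -0.12. For neighbours at 1 to 5 kb the shares were 39.8% and 10.6% of 322 peaks, and for neighbours at 5 to 20 kb 41.7% and 9.63% of 374. The 89 sparse peaks with no other peak within 500 kb had 34.8% and 13.5%. The loneliest peaks thus did not have the highest share of gains.

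Set against peaks of denser windows with the same spacing, sparse peaks differed most where neighbours were close. With a nearest peak within 1 kb, 13.3% of the other peaks were at least 2-fold higher against 23.8% of sparse peaks, and at 1 to 5 kb 25.3% against 39.8%. At 5 to 20 kb the shares were 32.6% and 41.7%. At 20 to 100 kb they were 37.3% of 6397 other peaks and 39.1% of 466 sparse peaks, and at 100 to 500 kb 36.8% of 467 and 37.9% of 272. The shares were thus close from 20 to 500 kb, and only 9 other peaks lay farther out. Losses were at 13.1% and 12.9% from 100 to 500 kb. Other peaks weighted to the distances of the 1657 sparse peaks under 500 kb would give 30.6% gains, beside 37.6% for those sparse peaks. Most of the other peaks lay in windows of 40 or more peaks. Windows of 10 to 19 and of 20 to 39 peaks were not compared with sparse peaks at like spacing. The classes of spacing were set with the values in view and carry no test.

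**Figure D4:**
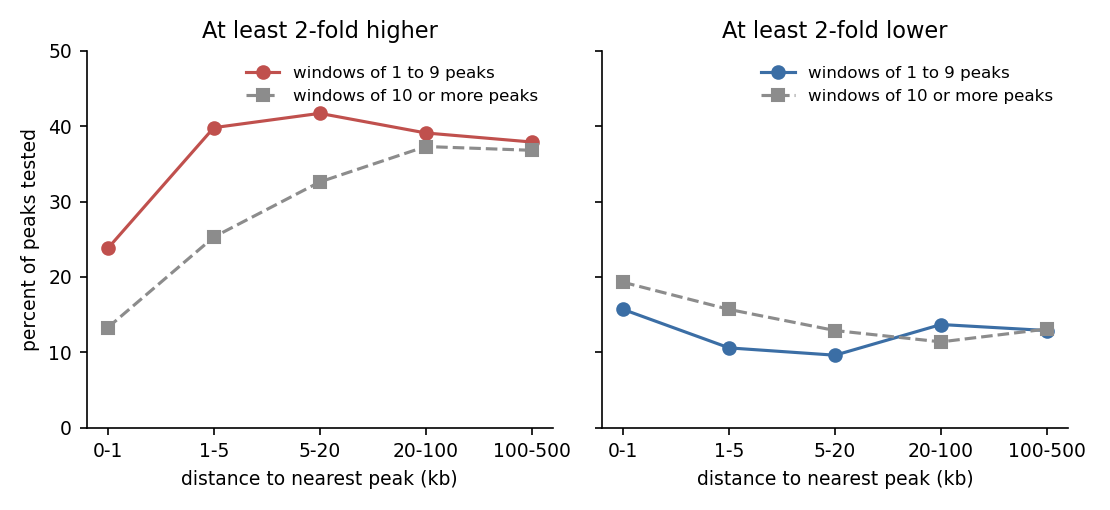
The percent of tested peaks at least 2-fold higher (left) and lower (right) is drawn against the distance between midpoints to the nearest peak in kb, for windows of 1 to 9 peaks (coloured circles) and of 10 or more (grey squares). On the left the lines are far apart at 1 to 5 kb, with 39.8% and 25.3%, and close at 20 to 100 kb, with 39.1% and 37.3%.

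Neighbouring sparse peaks moved together over short distances. Over 119 pairs of adjacent peaks of a window less than 1 kb apart, which can be parts of a single open site, Pearson's r of the log2 folds was 0.738 and 77.3% had the same sign. For 190 pairs at 1 to 5 kb r was 0.513 and for 407 pairs at 20 to 100 kb it was 0.171. For 292 pairs at 100 to 500 kb it was 0.0198, with 52.4% of one sign. In denser windows r was 0.595, 0.312, 0.13 and 0.082 at the same distances. These correlations run across peaks that share all 4 libraries, and they are given as descriptions.

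Gains and losses were also counted within each sparse window. Of the 271 windows with 3 or more peaks, 9 had every peak at least 2-fold higher and 1 had every peak at least 2-fold lower. At least 1 peak of each kind was found in 94, gains of this size without such losses in 133 (the 9 included), losses without such gains in 32 (the 1 included), and neither in 12. Such counts depend on the number of peaks per window and on the shares of gains and losses over single peaks. They are not given for denser windows, so no trait particular to sparse windows is read from them.

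Counts summed per window also gave more gains than losses. By edgeR's quasi-likelihood test over all 2112 windows with a peak, 360 of the 436 sparse windows (82.6%) were called, against 85.6% of all windows. Of these, 241 were higher (55.3%, against 52.2%) and 119 lower (27.3%, against 33.4%). At least 2-fold, 99 sparse windows were higher (22.7%, against 6.91%) and 31 lower (7.11%, against 2.32%). At least 4-fold, 34 were higher (7.8%, against 1.8%) and 15 lower (3.44%, against 0.9%). A sum over few peaks can move further than one over many, and both directions were more frequent than over all windows. The median log2 fold was 0.28 over the sparse windows and 0.10 over all windows.

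The sparse windows with the largest gains, among those with at least 5 peaks, were on chromosomes 24, 22, 14, 23 and 15. On chromosome 24 from 14000001 to 15000000 the sum over 7 peaks was 17.7 and 18.8 CPM in mature A and B and 89.7 and 86.6 CPM in reseeded A and B. This is a log2 fold of 2.27 (SE 0.07, adjusted p = 2.93e-07 by edgeR), and each of the 7 peaks was at least 2-fold higher, with log2 folds from 1.37 to 3.6. The peaks were spread over 708 kb, so the gain was shared by sites far apart. Chromosome 22 from 53000001 to 54000000 had 26.4 and 29.6 CPM in the mature and 127 and 128 CPM in the reseeded libraries, a log2 fold of 2.20 (SE 0.06), with all 6 peaks at least 2-fold higher.

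Chromosome 23 from 42000001 to 43000000 differed in layout: its 5 peaks lay within 21.2 kb, and the sum rose from 29.9 and 33.5 CPM to 113 and 111 CPM (log2 fold 1.83, SE 0.06). On chromosome 14 from 9000001 to 10000000, 7 peaks over 600 kb rose from 23.1 and 26.2 CPM to 101 and 93.0 CPM (log2 fold 1.98, SE 0.08). Of these, 5 were at least 2-fold higher. Chromosome 15 from 41000001 to 42000000 rose from 32.1 and 38.4 CPM to 120 and 123 CPM over 6 peaks (log2 fold 1.80, SE 0.07). In each of these 5 windows the groups did not overlap, and mature B read slightly above mature A.

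Among sparse windows of at least 5 peaks, the one with the lowest log2 fold held a cluster of strong peaks. On chromosome 1 from 60000001 to 61000000, 7 peaks summed to 889 and 1160 CPM in mature A and B and to 230 and 226 CPM in reseeded A and B, a log2 fold of -2.16 (SE 0.11, adjusted p = 1.58e-06 by edgeR). Of these peaks, 6 lay within 3.86 kb, from 60596137 to 60599992, with log2 folds from -2.60 to -2.10. The peak from 60596835 to 60597335 had the highest mean CPM of all sparse peaks, with 394 and 501 CPM in mature A and B and 105 and 103 CPM in reseeded A and B (log2 fold -2.10, SE 0.08, adjusted p = 9.39e-22).

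The mature libraries disagreed over this cluster, whose 6 peaks summed to 839 CPM in mature A and 1110 CPM in mature B, a log2 ratio of 0.41. The reseeded libraries had 207 and 200 CPM. The cluster held 3.57% and 4.78% of the sparse peaks' counts in mature A and B and 0.783% and 0.759% in reseeded A and B. Without its window, the share of library counts in sparse peaks was 2.34% and 2.29% in mature A and B and 2.78% in each reseeded library. The difference was then 0.465 percentage points.

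Chromosome 17 from 64000001 to 65000000 fell from 106 and 156 CPM in mature A and B to 37.7 CPM in each reseeded library (log2 fold -1.78, SE 0.16). Its 9 peaks were of different kinds: 6 had log2 folds of -3.61 to -3.42, while the other 3, from 64148222, 64232564 and 64270194, had -0.40, -0.26 and -0.46. Mature B exceeded mature A at each of the 6 lost peaks, such as 21.5 against 13.6 CPM at 64233936 to 64234436. It is the last window with a peak on its chromosome.

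The next 3 windows of at least 5 peaks by lowest log2 fold mixed losses with gains. Some windows of fewer peaks fell further, and the lowest log2 fold of any sparse window was -3.88. On chromosome 15 from 63000001 to 64000000 (log2 fold -1.0, SE 0.13), peaks from 63396499 and 63976050 fell with log2 folds of -3.85 and -3.70. Between them, peaks from 63539877 and 63749503 rose with log2 folds of 1.38 and 2.22. This window too is the last with a peak on its chromosome and may cover less than 1 Mb. On chromosome 14 from 2000001 to 3000000 (log2 fold -0.83, SE 0.09), 4 peaks from 2542159 to 2755244 fell by 3.24 to 3.69 on the log2 scale. Further on in the window, a pair from 2979928 to 2981017 rose with log2 folds of 1.27 and 1.71. Chromosome 33 from 1000001 to 2000000 (log2 fold -0.77, SE 0.05) had log2 folds from -3.82 to 1.00 over 5 peaks. A sum over such a window hides sites that moved in opposite directions.

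**Figure D5:**
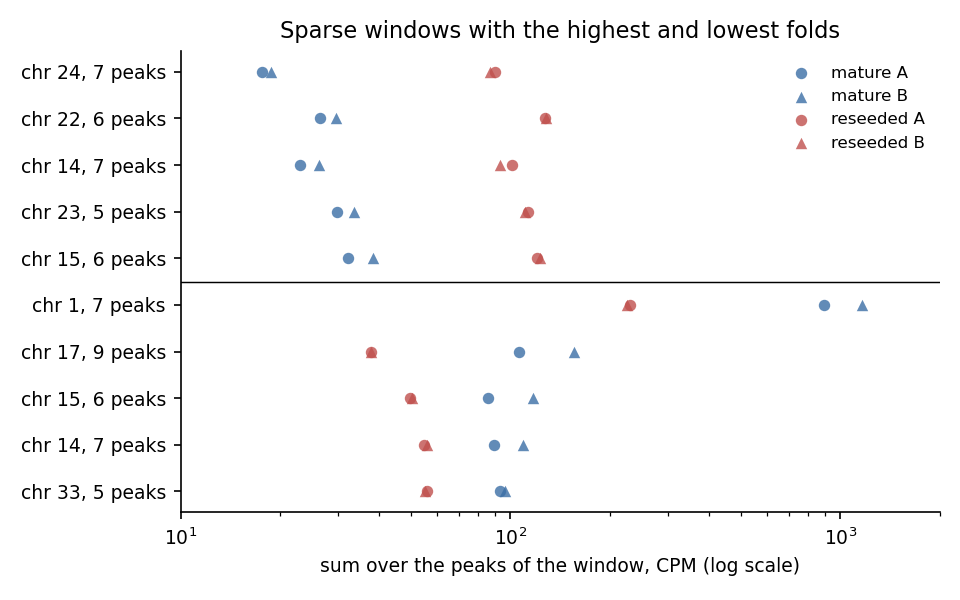
Points give the summed CPM (log scale) of each library for the 5 sparse windows with the highest (above the line) and the 5 with the lowest log2 fold among called windows of at least 5 peaks. Reseeded libraries (red) lie close together in every window, whereas mature libraries (blue) are apart in some lost windows, such as 106 and 156 CPM on chromosome 17.

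Single sparse peaks with the largest gains had low counts in mature cells. The 8 named for the highest log2 folds had 12 to 27 counts over the 2 mature libraries together. A count of 3 in a library was taken as the counting floor. It equals 0.348 and 0.486 CPM in mature A and B and 0.175 and 0.123 CPM in reseeded A and B. The peak on chromosome 12 from 53844215 to 53844715 had 1.51 and 2.27 CPM in mature A and B and 31.5 and 33.6 CPM in reseeded A and B, a log2 fold of 4.16 (SE 0.18, adjusted p = 1.37e-20 by edgeR). The nearest other peak was 128 kb away, and the groups were far apart. On chromosome 34 the peak from 13053925 to 13054425 had 0.812 and 1.62 CPM in the mature and 21.6 and 23.0 CPM in the reseeded libraries (log2 fold 4.27, SE 0.22).

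On chromosome 4, 2 of the top gains lay 2.38 kb apart in a window of 4 peaks. The peak from 16906489 to 16906989 had 0.928 and 1.3 CPM in mature A and B and 21.2 and 19.4 CPM in reseeded A and B (log2 fold 4.21, SE 0.22). Its neighbour from 16904112 to 16904612 had 1.16 and 0.324 CPM, the latter under the floor, and 13.9 and 13.4 CPM (log2 fold 4.06, SE 0.27). Without mature A its log2 fold was 5.36. The highest log2 fold of a sparse peak, 4.53 (SE 0.23), was on chromosome 1 from 61232839 to 61233339, with 0.696 and 1.3 CPM in mature A and B and 23.5 and 21.0 CPM in reseeded A and B. The other 3 of the 8 highest, on chromosomes 5 (26177957 to 26178457), 15 (53775082 to 53775582) and 33 (11443419 to 11443919), had log2 folds of 4.02 to 4.13. Under loess offsets all 8 were still called higher, with log2 folds from 1.70 to 3.86.

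Among the lost peaks, that on chromosome 15 from 63396499 to 63396999 was the strongest of the 8 with the largest losses. It had 48.0 and 70.6 CPM in mature A and B and 3.44 and 4.39 CPM in reseeded A and B, a log2 fold of -3.85 (SE 0.14, adjusted p = 6.38e-22 by edgeR). The 2 mature libraries were apart, yet both stood far above the reseeded ones. On chromosome 21 the peak from 38191225 to 38191725 had 26.6 and 27.4 CPM in the mature libraries, which here were alike, and 1.63 and 2.05 CPM in the reseeded ones (log2 fold -3.84, SE 0.16). On chromosome 3 the peak from 1204605 to 1205105, 149 kb from its nearest neighbour, had 19.9 and 22.2 CPM and then 1.28 and 1.48 CPM (log2 fold -3.90, SE 0.19).

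Some of the lost peaks were the only peak of their window. On chromosome 36 the peak from 1445592 to 1446092, 1090 kb from the next, had 13.7 and 22.8 CPM in mature A and B and 1.28 and 1.19 CPM in reseeded A and B (log2 fold -3.84, SE 0.25). On chromosome 28 the peak from 37439405 to 37439905, 500.0 kb from the next, had 12.9 and 15.9 CPM and then 0.584 and 1.23 CPM (log2 fold -3.88, SE 0.28). Without reseeded B the log2 fold of the latter was -4.60. The lowest log2 fold of these 8, -4.36 (SE 0.33), was on chromosome 23 from 4055113 to 4055613, with 14.3 and 10.4 CPM in mature A and B and 0.408 and 0.738 CPM in reseeded A and B. A peak on chromosome 31 from 25101224 to 25101724, named after its values were seen because its mean count was under 50, fell further, from 10.2 and 8.58 CPM to 0.233 and 0.287 CPM (log2 fold -5.11, SE 0.43). Loess offsets gave the 8 named losses log2 folds from -6.97 to -3.81.

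Of the 5 strongest sparse peaks, 3 belong to the chromosome 1 cluster, and the other two fell slightly. The peak on chromosome 5 from 73985411 to 73985911 had 143 and 134 CPM in mature A and B and 108 CPM in each reseeded library (log2 fold -0.36, SE 0.06, adjusted p = 4.51e-06 by edgeR), and that on chromosome 34 from 32553406 to 32553906 had 92.0 and 85.8 CPM and then 70.7 and 70.0 CPM (log2 fold -0.34, SE 0.07). Both small falls turned to log2 folds of 0.15 and 0.06 under loess offsets. The 3 strongest peaks that were not called, chosen for a log2 fold within 0.25 of 0, lay on chromosomes 23 (36458392 to 36458892), 3 (31965914 to 31966414) and 7 (55000730 to 55001230). On chromosome 23 the levels were 69.2 and 62.4 CPM in mature A and B and 70.8 and 70.2 CPM in reseeded A and B (log2 fold 0.09, SE 0.07, adjusted p = 0.221 by edgeR). This peak was called higher without mature A (log2 fold 0.18, adjusted p = 0.0364 by edgeR) and, barely, with upper-quartile factors (0.13, adjusted p = 0.0497). On chromosome 3 the levels were 66.3 and 54.9 CPM and 62.7 and 59.3 CPM, and on chromosome 7 they were 55.1 and 41.6 CPM and 49.0 and 48.3 CPM. In these last 2 the reseeded levels lay between the mature ones. Without mature A the chromosome 7 peak was called higher (log2 fold 0.22, adjusted p = 0.0249 by edgeR), and without mature B it was called lower (-0.19, adjusted p = 0.0146). Under loess offsets all 3 were called higher, with log2 folds of 0.46, 0.33 and 0.28 on chromosomes 23, 3 and 7 (adjusted p = 1.63e-09, 6.24e-06 and 0.000473 by edgeR).

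Peaks that were alone in their window also had more gains than losses, with a higher share of losses than sparse peaks as a whole. Of 103, 36 were at least 2-fold higher (35.0%, against 26.9% of all peaks) and 17 at least 2-fold lower (16.5%, against 15.0%), and 16 were not called. Over all sparse peaks the shares were 37.4% and 12.4%. At least 4-fold lower were 10.7% of the lone peaks and 6.87% of all sparse peaks. These differences carry no test. Their median distance to the next peak was 656 kb. The strongest by mean CPM, on chromosome 6 from 65174181 to 65174681 and 467 kb from any other, rose from 39.1 and 38.7 CPM in mature A and B to 55.7 and 55.9 CPM in reseeded A and B (log2 fold 0.52, SE 0.07). The next, on chromosome 23 from 15911330 to 15911830, fell from 65.1 and 49.6 CPM to 33.1 and 35.3 CPM (log2 fold -0.77, SE 0.09). The third, on chromosome 26 from 36263711 to 36264211, had 38.4 and 35.3 CPM and then 30.7 and 31.5 CPM, a small fall (log2 fold -0.25, SE 0.08, adjusted p = 0.00532 by edgeR) whose call was lost without mature A (adjusted p = 0.112) or without reseeded A (0.0682). It was also lost when counts were thinned to the shallowest library (adjusted p = 0.0511), and under loess offsets the log2 fold was -0.03 (adjusted p = 0.763 by edgeR).

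Sparse windows at chromosome ends went the other way. The first or last window with a peak was sparse in 23 cases, 16 of them last windows with 76 of the peaks. The fixed grid can run past the end of a chromosome. A last window may thus cover less than 1 Mb and be sparse for that reason. Chromosome lengths were not used, and this was not tested. Where a sparse last window held more than 1 peak, its peaks spanned 5.29 kb (chromosome 28) to 724 kb (chromosome 37). The 109 peaks of all 23 windows had a median log2 fold of -0.31, with 22.9% gained and 29.4% lost at least 2-fold. For the 1637 sparse peaks elsewhere these values were 0.47, 38.4% and 11.2%. Of the 23 windows 16 were called lower (69.6%, against 33.4% of all windows) and 6 higher (26.1%, against 52.2%) by edgeR's quasi-likelihood test. In the 413 sparse windows elsewhere 24.9% were called lower and 56.9% higher. The difference between ends and the rest was seen in the data and was not tested, and end windows that were not sparse had similar values, with a median log2 fold of -0.39 over 1575 peaks. Mature B exceeded mature A at the sparse end peaks by a median log2 ratio of 0.17, which was 0.0 at the other sparse peaks. Its part in the difference was not tested.

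At the ends, windows with strong losses were found on several chromosomes. On chromosome 28 the last window, from 41000001, held 2 peaks that summed to 24.1 and 37.3 CPM in mature A and B and to 2.63 and 2.21 CPM in reseeded A and B (log2 fold -3.64, adjusted p = 7.78e-06 by edgeR). The first window of the same chromosome rose, from 65.0 and 63.2 CPM over 7 peaks to 104 and 99.9 CPM (log2 fold 0.67). The 2 ends of 1 chromosome thus differed in direction. On chromosome 33 the first window fell from 151 and 188 CPM over 3 peaks to 55.4 and 52.4 CPM (log2 fold -1.64), and on chromosome 34 the last window rose from 106 and 112 CPM over 9 peaks to 166 and 157 CPM (log2 fold 0.57).

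Each of the 35 chromosomes had sparse peaks, from 7 on chromosome 38 to 115 on chromosome 3. Chromosomes 3, 1 and 15 had the most, with 115, 108 and 89. Among the 16 chromosomes with at least 50, the median log2 fold was positive in 15 and above that of the chromosome's own other peaks in 14. Over all 35 chromosomes it was above that of the other peaks in 26. Among those with fewer sparse peaks it was negative on chromosomes 17 (-0.46) and 38 (-0.39), for example, and on 33 and 36 it was -0.21 and -0.13 beside 0.47 and 0.41 for the other peaks. Among the 16, it was highest on chromosomes 22 (1.18, with 41 gains and 1 loss of at least 2-fold among 73 peaks), 16 (1.13, 31 and 5 of 56) and 15 (1.03, 45 and 10 of 89). The other peaks of these chromosomes had medians of 0.34, 0.02 and 0.06. The shares gained and lost were 56.2% and 1.37%, 55.4% and 8.93%, and 50.6% and 11.2%, against 26.9% and 15.0% of all peaks. The lowest medians of the 16 were on chromosomes 27 (-0.19, 12 and 11 of 57), 18 (0.03) and 10 (0.12), where the other peaks had -0.03, -0.25 and -0.01. On chromosome 27 the shares gained and lost were 21.1% and 19.3%. Chromosomes share the same 4 libraries and are no replicates.

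The longest runs of sparse windows did not share a direction. On chromosome 27 from 23000001 to 30000000, 35 peaks in 7 windows summed to 443 CPM in each mature library and to 468 and 469 CPM in reseeded A and B. There 17 peaks were called higher and 17 lower (48.6% each), against 42.3% and 41.8% of all peaks. On chromosome 11 from 69000001 to 75000000 the sum over 23 peaks was 238 CPM in each mature library and 281 and 289 CPM in the reseeded ones. On chromosome 17 from 41000001 to 47000000, 8 peaks in 6 windows summed to 88.6 and 85.4 CPM and then to 70.8 and 72.1 CPM. On chromosome 3 from 3000001 to 8000000, 19 peaks summed to 173 and 181 CPM and then to 249 and 253 CPM. The median log2 folds of their peaks were 0.19, 0.20, -0.37 and 0.71 in that order. Peaks called higher and lower numbered 9 and 6 on chromosome 11, 3 and 4 on chromosome 17, and 12 and 5 on chromosome 3. A run of equal length to the last, on chromosome 15 from 57000001 to 62000000, held fewer peaks (17, median log2 fold 0.77).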

How the data were processed

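The authors deposited a table of counts, not normalized, with a row for each peak and a column for each of 4 libraries. Bowtie2, MACS2 and the build CanFam3.1 are named per the submitters' processing notes. For versions, duplicate handling, the Tn5 offset and the unit counted (reads or fragments), the text used here gives nothing. Every peak was 501 bp wide, and positions count from 1. All peaks were fitted in R 4.3.3 with edgeR 4.0.16 (filterByExpr, TMM, quasi-likelihood test, no block; 59076 tested). A peak was called at a p under 0.05 after Benjamini-Hochberg adjustment across every tested peak. The SE of a log2 fold comes from the fold and its F statistic. Window sums used the same factors. The tests were also run on simulated counts with few changed peaks or windows and a common dispersion. In these data 84.1% of peaks were called, so that run does not bear on scaling or error rates here. Alternatives used DESeq2 1.42.0, limma 3.58.1 and other scalings, filters, window rules and depths.

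Named peaks were among called sparse peaks averaging 50 counts or more whose groups do not overlap, the 8 with the highest and the 8 with the lowest log2 fold, the 5 strongest, the 3 strongest not called (log2 fold within 0.25 of 0) and the 3 strongest alone in a window. Named windows were the 5 highest and 5 lowest called with at least 5 peaks, and the 4 longest runs (ties by more peaks). The set, these rules and the tests were chosen with earlier results of these data known, among them the relation of gains to peak density. Sequences are not shown, because no genome of this build was used here. Other software was numpy 2.4.6, pandas 2.3.3, scipy 1.17.1 and matplotlib 3.10.9.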

Additional observations from a re-analysis of the deposited data

How the results depend on the processing

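Of 192 alternatives for the main shares, medians and counts, 171 stayed within 1.5 times the main value (for medians and shares of counts, within the spread between library letters). Loess offsets left 19.4% of sparse peaks at least 2-fold higher and a median log2 fold of 0.02. That median was 0.45 with upper-quartile factors and with library size alone, 0.38 thinned to the shallowest library, 0.57 in windows of 1 to 4 peaks, 0.37 in windows of 1 to 14, 0.38 in windows of 2 Mb, 0.47 without chromosome ends and 0.35 with all chromosomes. The difference in share of counts, in percentage points, was 0.160 and 0.911 for windows of 1 to 4 and 1 to 14 peaks, 0.465 on a grid moved by 500 kb, 0.366 in 2 Mb windows, 0.401 without ends, 0.446 with all chromosomes, and, added after seeing the data, 0.465 without the strongest window and 0.373 without windows with peaks within 1 kb. Other window rules change the members, and so these values, by construction. With a library left out, 77.1% to 84.1% of sparse peaks and 69.3% to 83.9% of sparse windows were called, 36.9% to 37.7% were at least 2-fold higher, the median was 0.39 to 0.42 and the share difference 0.377 to 0.393. With the replicate block by letter 83.7% of peaks and 81.9% of windows were called, and every named peak and window kept its call under the block. The letters showed no pairing (A minus B differences of the states correlated at 0.0314 over all peaks).

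For named items 492 of 505 alternatives kept direction and call. Under loess offsets the log2 fold turned to 0.15 at chromosome 5 from 73985411, 0.06 at chromosome 34 from 32553406, 0.33 at chromosome 3 from 31965914 and 0.28 at chromosome 7 from 55000730. The last, not called in the main test, ranged from -0.19 to 0.22 with a library left out. The cause was not tested. Mature depth limits folds from near the floor. Loess offsets were not run on windows.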
